A study of Homo sapiens with 2 samples.

Results

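Dense runs of MSI2 peaks are stretches of RNA in which 4 or more CLIP-seq peaks of 1 gene follow each other with gaps of at most 100 nt. Peaks were ordered by gene ID and start, chained while the gap from one end to the next start was 100 nt or less, and kept if their chain held 4 or more. The runs were therefore selected on peak positions, and their number and spacing are given as a description. Replicate 1 held 249 such peaks of 25920, in 60 runs, and replicate 2 held 308 of 25243, in 72 runs. Together 557 of 51163 peaks lay in 132 runs.

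Both libraries belonged to 1 group, MSI2 CLIP-seq in NB4. This is a widely used cell line from a human acute promyelocytic leukaemia, and its labels name no treatment or edit. Per the labels' protocols, equal numbers of cells were crosslinked at 400 mJ/cm2 and the Abcam antibody EP1305Y was used. In CLIP-seq, ultraviolet light fixes RNA to bound proteins, immunoprecipitation pulls down the protein of interest, and the RNA fragments left on it are sequenced and called as peaks. The labels do not say whether the replicates came from separate cultures, so their spread may be technical. No untreated, input or other control library was analysed here.

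MSI2 (Musashi-2) is an RNA-binding protein with a pair of RNA recognition motifs. It is known to bind short UAG-containing elements, often in the 3′ untranslated regions of mRNAs, and to alter the translation or stability of its targets. It is studied in blood stem cells and in myeloid leukaemia, where its level influences self-renewal and differentiation. Such elements can occur several times within a short stretch of RNA.

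Each deposited peak carried a p-value and a gene ID followed by 2 numbers. The last number is called the tally here. It behaves like a count of reads, but no header explains it. All tallies were 3 or more. They summed to 155598 in replicate 1 and 133644 in replicate 2, and total library depth is not given in the files. None of the 8801 gene IDs was paired with a symbol by the table used here, so runs are named by hg19 position. For the same reason the NB4 label could not be checked against marker genes. Sequence and gene models of hg19 were not used here, so the bases under the runs, their exons and their UTRs are not described.

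Most runs were no longer than the rule required. In replicate 1, 53 runs had 4 peaks, 5 had 5 and 2 had 6. In replicate 2, 58 runs had 4 peaks, 9 had 5, 4 had 6 and 1 had 7. Run peaks were 0.961% of the list in replicate 1 (95% Wilson interval 0.849 to 1.09%) and 1.22% in replicate 2 (1.09 to 1.36%). Chains of exactly 3 peaks, which fell just short, numbered 315 and 342. Of the gene IDs with 4 or more peaks, and so able to hold a run, 60 of 2528 did so in replicate 1 (2.37%) and 71 of 2423 in replicate 2 (2.93%).

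The runs were short. Their extent had a median of 324.5 nt in replicate 1, from 120 to 528 nt, and of 316 nt in replicate 2, from 98 to 597 nt. Peaks covered a median of 53.4% of a run's extent in replicate 1 and 51.6% in replicate 2. The median gap inside runs was 46 nt in both. The centres of successive run peaks lay a median of 91 nt apart in replicate 1 (quartiles 73 and 112 nt) and 89 nt apart in replicate 2 (64 and 110.25 nt). The joining limit caps these gaps, so the spacing is partly set by the rule.

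Some neighbours touched end to end, which leaves no uncovered base between peaks. This was so for 26 of 189 neighbouring pairs in replicate 1 (13.8%) and 36 of 236 in replicate 2 (15.3%). Chains of 2 or 3 peaks had larger shares of touching pairs, 24.7% in replicate 1 and 44.4% in replicate 2. Of the runs, 20 of 60 and 27 of 72 had at least 1 touching pair. With touching peaks merged into 1 peak, 43 runs remained in replicate 1 and 49 in replicate 2.

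Runs near the joining limit were few. The widest gap was 96 to 100 nt in 4 runs of 4 peaks in replicate 1 and in 7 in replicate 2. A gap at most 5 nt over the limit kept 2 and 6 chains from reaching 4 peaks. The median tally of their peaks was 12 just inside the limit and 8 just outside it in replicate 1, and 7.5 and 7 in replicate 2.

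The rule did not use the tally, and run peaks had higher tallies than other peaks. The median tally was 8 in the runs of replicate 1 (quartiles 5 and 15) against 4 outside runs. In replicate 2 it was 6 (quartiles 4 and 12) against 4. Tallies of 10 or more were held by 45.4% of run peaks and 12.8% of other peaks in replicate 1, and by 32.8% and 9.24% in replicate 2. Chains of exactly 3 peaks came near the runs, with median tallies of 7 in replicate 1 and 5 in replicate 2. Tallies of 10 or more were held by 32.9% and 21.6% of their peaks. The lowest tally, 3, was held by 8.84% of run peaks against 35.9% of others in replicate 1, and by 23.7% against 45.6% in replicate 2. Runs thus held 2.14% and 2.31% of the summed tally. With 1 group of 2 libraries no test over samples could be made, and the level of each RNA was not measured here. Whether RNA level moves with tally or with the number of peaks a gene receives was not tested.

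Other peaks of the same gene IDs lay between these levels. Their median tally was 6 in replicate 1 and 5 in replicate 2. The gene's highest tally lay in the run for 28 of the 54 gene IDs of replicate 1 that also had peaks outside it. It lay outside for 24, and 2 were tied. In replicate 2 the counts were 32 inside, 32 outside and 2 tied, of 66. A run was therefore not regularly the place of a gene's strongest peak. Over all runs, a run held a median of 50% of its gene ID's peaks in both replicates. The counts were not tested against that share.

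Within a run the signal was spread over the peaks. The strongest peak held a median of 35.3% of the run's summed tally in replicate 1 and 34.6% in replicate 2. It was an interior peak in 31 of 60 runs of replicate 1, the 5′ end peak in 9, the 3′ end peak in 13, and tied in 7. In replicate 2 it was interior in 37 of 72, at the 5′ end in 8, at the 3′ end in 13 and tied in 14. Interior peaks made up 51.8% and 53.2% of all run peaks. The summed tally of a run had a median of 38 in replicate 1, from 13 to 247, and of 29.5 in replicate 2, from 12 to 219.

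Runs made only of weak peaks had shorter median extents than the other tally classes. In replicate 2, 13 of the 72 runs had no peak above a tally of 4, and in 10 of these all peaks stood at 3. Their median extent was 142 nt, and 19 of their 39 neighbouring pairs touched (48.7%). A peak of replicate 1 overlapped 7 of their 52 peaks (13.5%). Replicate 1 had 3 such runs of 60, with a median extent of 140 nt, 5 of 9 pairs touching, and 0 of 12 peaks overlapped in replicate 2. Peaks of tally 3 to 4 outside runs recurred at 21.1% in replicate 2 and 16.4% in replicate 1, so weak peaks seldom recurred in either place.

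Runs with stronger peaks were longer than these and had smaller shares of touching pairs. Where the highest tally was 10 to 19, the median extent was 352 nt in replicate 1 and 363 nt in replicate 2, and 5.08% and 7.29% of neighbouring pairs touched. Where it was 20 or more, the medians were 318.5 and 339 nt and the shares 17.9% and 9.52%. Replicate 1 had 24 such runs and replicate 2 had 13, with 75.5% and 81.8% of their peaks overlapped in the other replicate. These tally classes were chosen after the values were seen.

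Recurrence was read in the replicate that had not chosen the run. A peak was recurrent where at least 1 nt of it was also covered, on its strand, in the other list. Of the run peaks of replicate 1, 149 of 249 recurred, 59.8% (53.6 to 65.7%), while 35.7% of all its peaks did so. Of the run peaks of replicate 2, 168 of 308 recurred, 54.5% (49.0 to 60.02%), against 37.3% of all its peaks. Peaks of 1 run share a gene and a stretch of RNA, so the intervals cover counting error only.

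The share did not rise evenly with the number of neighbours. In replicate 1 it was 32.9% for lone peaks, 41.2% in chains of 2, 56.6% in chains of 3 and 59.8% in runs. In replicate 2 it was 37.4%, 33.3%, 54.1% and 54.5%. Chains of 2 thus lay above lone peaks in replicate 1 and below them in replicate 2. Peaks narrower than 15 nt were common in chains of 2 in both, 20.6% against 6.33% of lone peaks in replicate 1 and 31.9% against 5.46% in replicate 2. In both replicates the intervals for chains of 3 and for runs overlapped.

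**Figure D1:**
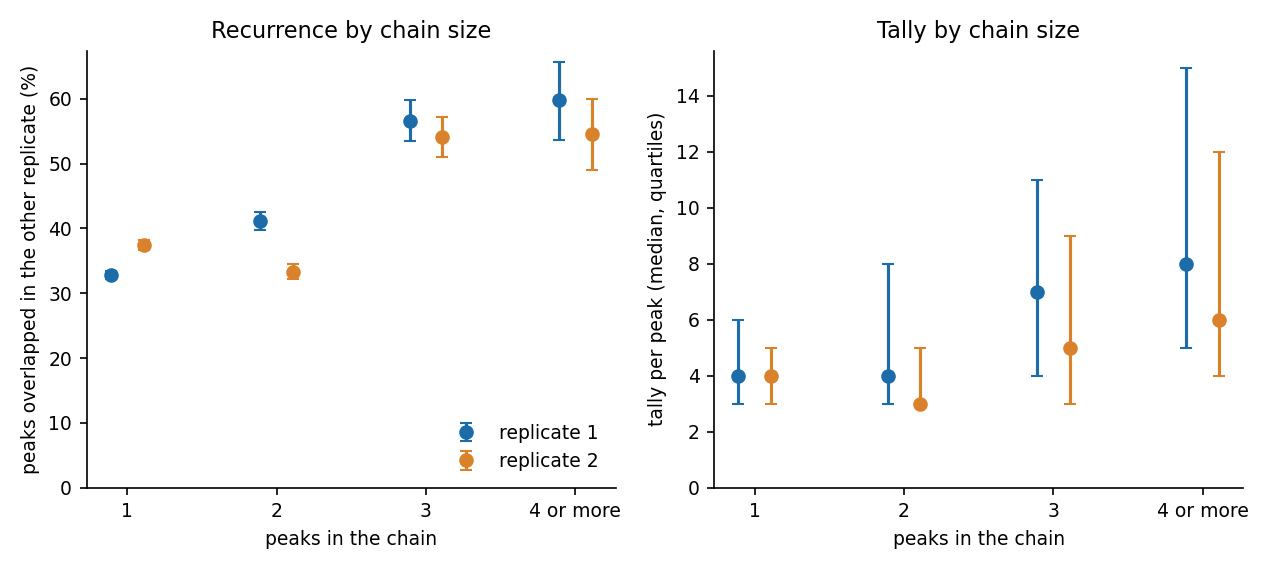
Left, share of peaks overlapped by a peak of the other replicate (%), by the number of peaks in their chain, with 95% Wilson intervals. Right, tally per peak as median (point) and quartiles (bars). Chains of 3 and runs of 4 or more recurred at like shares, 56.6% and 59.8% in replicate 1 and 54.1% and 54.5% in replicate 2, and had the highest tallies.

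Within classes of tally, run peaks recurred more often than peaks outside runs in some classes and less often in others. At a tally of 3, the shares were 9.09% (2.53 to 27.8%) and 11.9% in replicate 1, and 23.3% (15.1 to 34.2%) and 15.5% in replicate 2. At a tally of 10 or more, 81.4% of run peaks recurred in replicate 1 (73.3 to 87.5%) against 87.3% outside runs. In replicate 2 the shares were 85.1% (76.9 to 90.8%) and 89.6%. This class has no upper bound, so tallies in it were not equal. Its median tally was 17 in runs and 13 outside in replicate 1, and 14 and 13 in replicate 2. At tallies of 4 to 5, run peaks were higher, 39.3% (27.6 to 52.4%) against 28.5% in replicate 1 and 45.5% (34.0 to 57.4%) against 38.6% in replicate 2. At tallies of 6 to 9, the shares were 56.9% and 54.9% in replicate 1, but 51.5% (39.8 to 62.9%) and 65.2% in replicate 2. That value outside runs lay above the interval of the run peaks, and it was the only class of the 8 where the value outside runs lay beyond it. In that class of replicate 2, peaks outside runs under the gene IDs with a run recurred at 50% (39.9 to 60.1%). The lower share was therefore not particular to run peaks.

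Weighting the peaks outside runs to the tallies of the run peaks gave a recurrence of 61.9% in replicate 1 and 57.0% in replicate 2. Tallies of 20 or more were weighted as 1 class. Run peaks minus these weighted peaks gave a difference of -2.10 percentage points in replicate 1 and -2.49 in replicate 2. Without the weighting they stood 24.4 and 17.5 points above peaks outside runs. The higher recurrence of run peaks was thus not seen on average once tallies were matched, and these averages combine gaps of both signs. Among the other peaks of the same gene IDs, 53.6% recurred in replicate 1 and 39.6% in replicate 2.

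**Figure D2:**
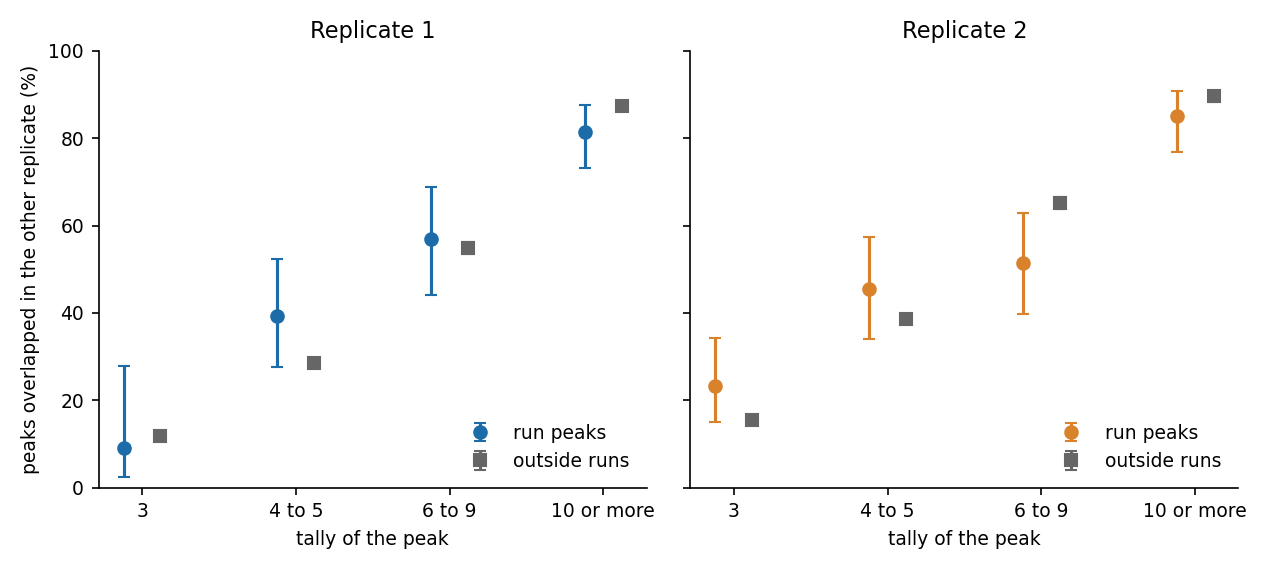
Share of peaks overlapped in the other replicate (%), by the peak's tally, for run peaks (coloured circles) and peaks outside runs (grey squares), with 95% Wilson intervals. In replicate 1 the share rose from 9.09% of run peaks at a tally of 3 to 81.4% at 10 or more, and from 11.9% to 87.3% outside runs. In replicate 2 run peaks lay above the others at tallies of 3 (23.3% against 15.5%) and 4 to 5, and below them at 6 to 9 (51.5% against 65.2%) and 10 or more.

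As whole units the runs recurred less. A run of the other replicate overlapped 11 of the 60 runs of replicate 1, 18.3% (10.6 to 29.9%), and 11 of the 72 of replicate 2, 15.3% (8.75 to 25.3%). The overlapping runs were the same 11 stretches, under 11 gene IDs of the 120 with a run in either replicate. Over all gene IDs with 4 or more peaks, 2.37% held a run in replicate 1 and 2.93% in replicate 2. Of the 7 runs of replicate 1 with 5 or more peaks, 1 was met by a run, and of the 14 in replicate 2, 2 were. None of these was met by another run of 5 or more.

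The runs that were not met usually had some peaks of the other replicate inside them, but not enough to form a run. Of the 49 unmet runs of replicate 1, 18 held 3 or more peaks of replicate 2, 19 held 2, 4 held 1 and 8 held none. Of the 61 unmet runs of replicate 2, 20 held 3 or more peaks of replicate 1, 19 held 2, 12 held 1 and 10 held none. The longest chain of the other replicate in the extent had 3 peaks in 16 and 14 unmet runs, so 1 more peak or 1 closer gap would have made a run there. Over the bases covered by run peaks, 55.4% in replicate 1 and 56.7% in replicate 2 were also covered by peaks of the other replicate.

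Runs met in both replicates had the higher tallies at the median. Their summed tally had a median of 64 in replicate 1 against 30 for unmet runs, and of 64 against 23 in replicate 2. Among the 15 runs of replicate 1 with the highest summed tallies 5 were met, and among the 15 lowest 1 was. In replicate 2 the counts were 6 of the highest 18 and 0 of the lowest 18. The runs without any peak of the other replicate had summed tallies of only 13 to 27 in replicate 1 and 12 to 23 in replicate 2.

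Runs with high summed tallies also had high sums in the other replicate. Across runs, the summed tally and that of the other replicate's peaks in the same extent correlated with a Spearman rho of 0.85 over 60 runs in replicate 1 and 0.92 over 72 in replicate 2. On the log2(tally + 1) scale Pearson's r was 0.80 and 0.85. The level of each RNA, which both libraries may share, was not measured, and some points share a gene or an interval. The other replicate's sum was higher in 4 of 60 runs of replicate 1 and in 24 of 72 runs of replicate 2. Its median was 0.532 and 0.732 of the run's own sum. Runs were selected in their own list, so that list's sum is not a neutral reference.

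**Figure D3:**
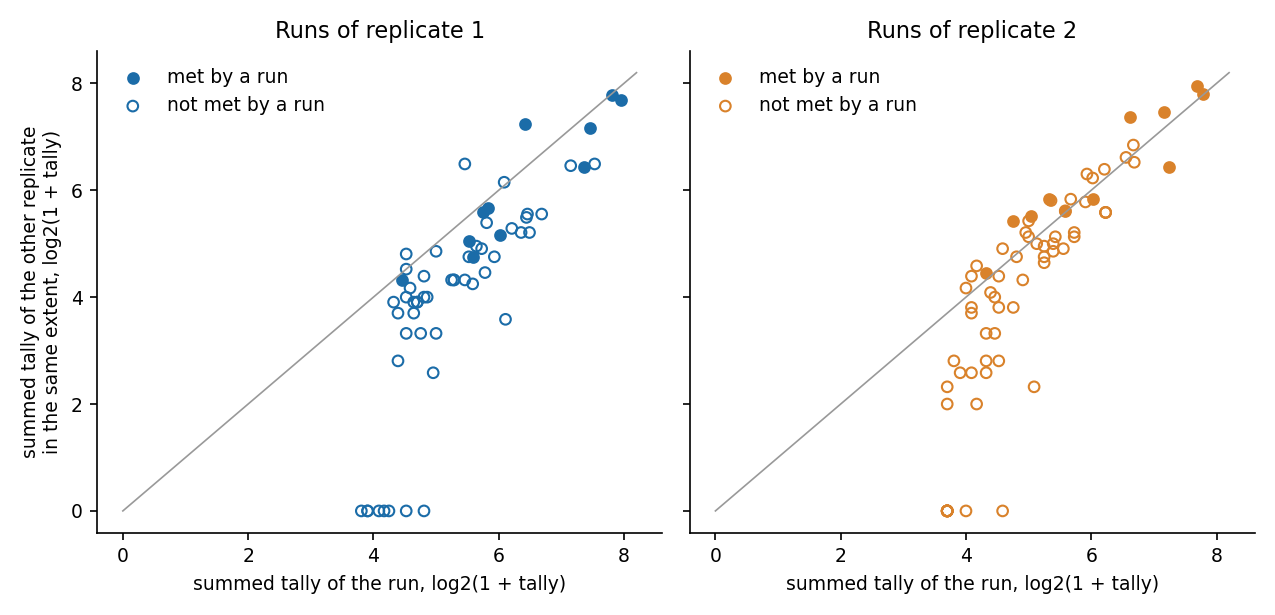
Summed tally of each run (x axis) and of the other replicate's peaks in the same extent (y axis), both as log2(1 + tally), for 60 runs of replicate 1 (left) and 72 of replicate 2 (right). Filled points are runs met by a run of the other replicate, open points are the others, and the grey line marks equal sums. Most points of replicate 1 lie below the line, with 4 of 60 above it, and runs without a peak of the other replicate lie at 0.

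The 11 recurrent stretches spanned a wide range of tallies. The highest sum in replicate 1, 247, lay on chromosome M, positions 2143 to 2450 on the plus strand in replicate 1 and 2134 to 2438 in replicate 2, under ENSG00000210082.2. From 5′ to 3′ its tallies were 45, 92, 54 and 56 in replicate 1, and 33, 82, 51 and 39 in replicate 2. The second peak was the highest in both. The highest sum in replicate 2 lay on chromosome 1, minus strand, 26227090 to 26227537, under ENSG00000117632.16, with tallies of 39, 75, 42 and 66 in replicate 1 and 47, 73, 54 and 45 in replicate 2. Its summed tallies, 222 and 219, were nearly equal, and its peaks covered 88.4% and 90.2% of the extent.

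A stretch on the minus strand of chromosome 4, 174252889 to 174253284, had 4 peaks in each replicate, with summed tallies of 175 and 142. It held all 4 peaks of its gene ID in replicate 1 and 4 of 6 in replicate 2. Another, on the minus strand of chromosome 16, 18804177 to 18804496, was covered over 98.4% of its extent in replicate 1 by peaks of 31, 49, 51 and 33. Replicate 2 had 5 peaks there, of 13, 16, 32, 24 and 12, and their sum of 97 was 0.591 of the 164 in replicate 1. The same stretch was thus nearly continuous in one list and split by gaps in the other.

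On the minus strand of chromosome 8, 101733619 to 101734033, replicate 2 was the stronger library. Its tallies were 35, 22, 38 and 56, against 18, 11, 19 and 37 in replicate 1, and its sum was 1.78 times as high. The order of the 4 peaks by tally was the same in both. This run also stood at the 5′ end of its gene's peaks, 0.0118 of the way along a span of 18.6 kb.

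The other 6 stretches had summed tallies from 19 to 64. On the plus strand of chromosome 4, 17625579 to 17625893, the sums were 56 and 64, with 4 and 5 peaks. On the minus strand of chromosome 14, 69846886 to 69847304, they were 53 and 47, and on the plus strand of chromosome 2, 238006598 to 238006918, they were 64 and 39. Both runs on chromosome 15 lay on the minus strand, at 51740299 to 51740637 with sums of 45 and 32 and at 40328269 to 40328684 with 47 and 26. In 9 of the 11 stretches the sum was lower in replicate 2.

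The weakest recurrent run lay on the plus strand of chromosome 12, 131357385 to 131357659, under ENSG00000132341.6, with tallies of 11, 3, 3 and 4 in replicate 1 and 6, 5, 5 and 3 in replicate 2. Its extents coincided within a few bases at both ends. This was also the only gene ID with more than 1 run in a replicate. Its other run in replicate 2, at 131360315 to 131360706, had tallies of 5, 13, 7 and 16, and 2 of its 4 peaks were overlapped in replicate 1.

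Within the 11 recurrent stretches, most single peaks of replicate 1 had a peak of replicate 2 close by. The stretches were kept because runs overlapped in both lists, so part of this closeness is set by the choice. Each peak carries a short inner interval, a few bases wide and usually near its middle. For the 45 peaks of the 11 stretches in replicate 1, the nearest inner centre of replicate 2 lay a median of 6 nt away. It lay within 10 nt for 34 of 45 (75.6%) and at most 134 nt away. Over all run peaks, inner centres lay within 10 nt for 39.8% in replicate 1 and 37.3% in replicate 2. No such share is given for peaks outside runs. In the stretch on chromosome 8 the distances ran from 0 to 2 nt. The largest distances belonged to end peaks called in 1 replicate alone, as on chromosomes 2, 14 and 15.

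**Figure D4:**
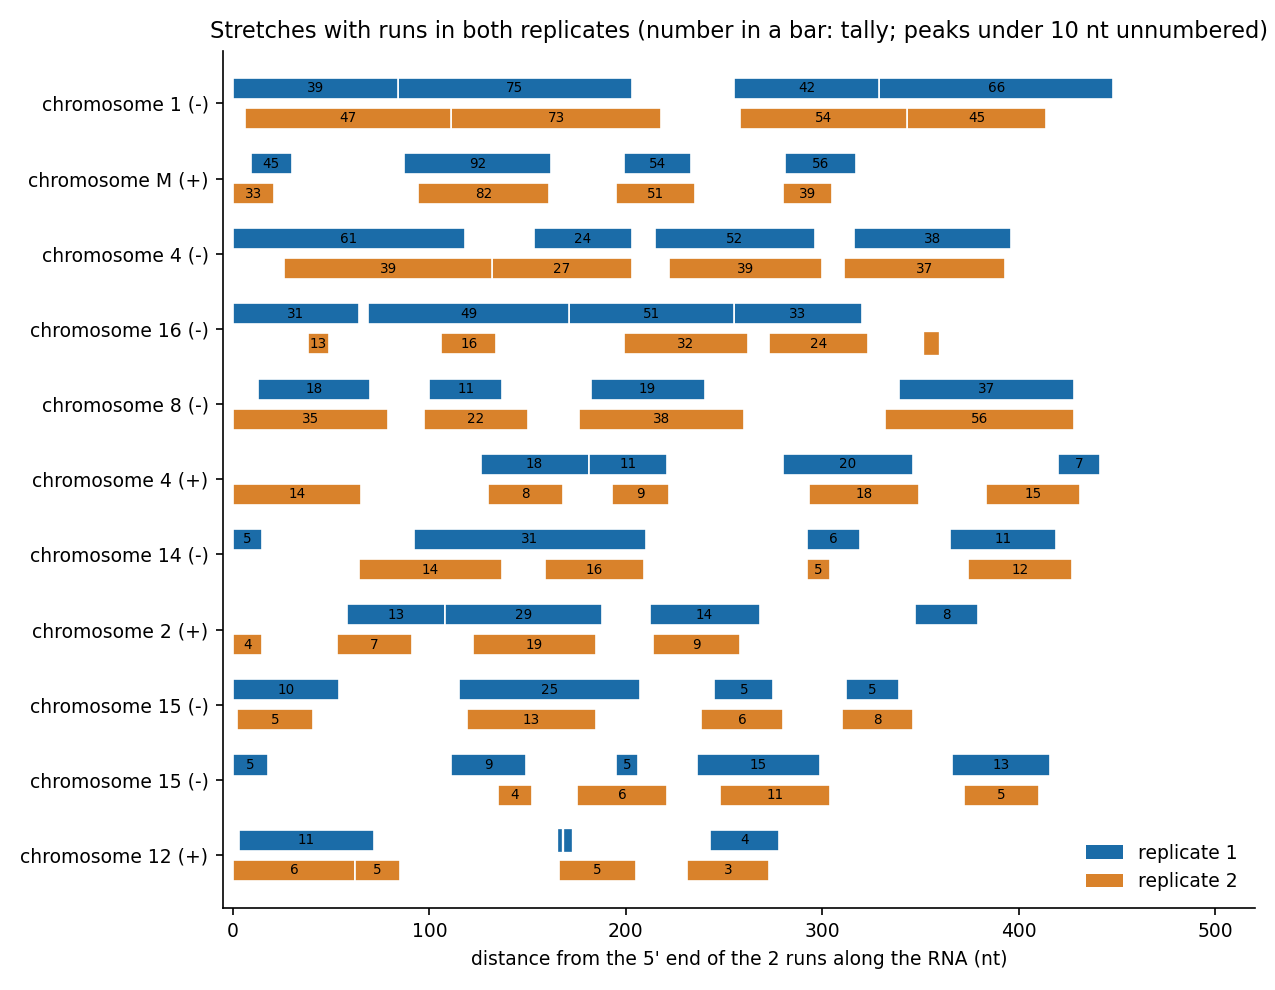
Peaks of the 11 stretches with runs in both replicates, drawn along the RNA from 5′ to 3′ (x axis, nt from the outermost 5′ end), replicate 1 in blue above replicate 2 in orange. Numbers are tallies, left out on bars under 10 nt, and stretches are ordered by the smaller of their summed tallies, 219 on chromosome 1 to 19 on chromosome 12. Peaks of the replicates lie over each other in most places, with extra end peaks in 1 replicate on chromosomes 2, 4 (plus strand), 14, 15 and 16.

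No run of 6 or more peaks was met by a run of the other replicate. In replicate 1 the run on the plus strand of chromosome 2, 65495816 to 65496343, had 6 peaks with tallies of 11, 19, 10, 15, 48 and 38. Replicate 2 had 4 peaks there with a sum of 87, the longest chain among them having 3. The run on the minus strand of chromosome 13, 45911020 to 45911524, also had 6 peaks, of 15, 13, 16, 11, 12 and 22, and replicate 2 had 3 peaks there that formed no chain. The tallies of the chromosome 13 run were more even than those on chromosome 2.

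In replicate 2 the longest run lay on the plus strand of chromosome 12, 98994957 to 98995471, with 7 peaks of 6, 5, 5, 6, 11, 9 and 5. Replicate 1 had 4 peaks in the same extent with a sum of 48, nearly the 47 of replicate 2, but no chain of them exceeded 2. On the minus strand of chromosome 7, 26231492 to 26231955, 6 peaks had tallies of 19, 8, 11, 22, 25 and 16, and 4 peaks of replicate 1 summed to 114. In both stretches replicate 1 had as high a sum in fewer peaks. A run of 6 peaks on the minus strand of chromosome 20, 48698652 to 48699227, was listed under 3 gene IDs and so counted 3 times. When overlapping runs were counted once, replicate 1 had 57 stretches and replicate 2 had 70.

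Gene IDs whose run met no peak of the other replicate often had peaks of that replicate elsewhere. The strongest in replicate 1 lay on the minus strand of chromosome 7, 151878333 to 151878673, with tallies of 6, 10, 5 and 6. Replicate 2 had 13 peaks under the same gene ID, none in that extent. The strongest in replicate 2 lay on the plus strand of chromosome 19, 581315 to 581592, with tallies of 4, 7, 4 and 8, while replicate 1 had 7 peaks elsewhere under its gene ID. Of the runs, 1 of 60 and 2 of 72 belonged to gene IDs with no peak at all in the other replicate. Of all 8801 gene IDs, 7252 had a peak in replicate 1 and 7101 in replicate 2. Gene IDs with a run hold at least 4 peaks by the rule, so they differ from the whole list in peak number.

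Runs took up much of their gene's peaks. They held a median of 50% of the peaks of their gene ID in both replicates, and all of them in 6 runs of replicate 1 and 5 of replicate 2. A run holds at least 4 peaks by the rule, so these shares are partly set by it. Gene IDs with a run had a median of 8 peaks in replicate 1 and 9 in replicate 2, against 6 over all gene IDs with 4 or more peaks. The nearest peak of the same gene ID outside the run was a median of 624.5 nt away in replicate 1 and 596 nt in replicate 2. It lay within 1000 nt in 34 of the 54 runs with such a peak, 63.0% (49.6 to 74.6%), and in 47 of 67, 70.1% (58.3 to 79.8%). For lone peaks and chains of 2 or 3 the shares were 53.7% and 52.1%. These include gene IDs with fewer than 4 peaks, so the genes compared differ in peak number.

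Position was measured along the span from the first to the last peak of a gene ID in either replicate, from 0 at the 5′ end to 1 at the 3′ end, for spans of 10 kb or more. In replicate 1, 76.6% of 137 run peaks (68.9 to 82.9%) were within the last 10% before the 3′ end, against 45.2% of all peaks. In replicate 2, 78 of 135 did, 57.8% (49.3 to 65.8%), against 42.2%. Among peaks of the same gene IDs outside runs the shares were 29.0% and 25.8%. Both replicates had the higher share in runs, and the run intervals of the replicates did not overlap each other. The rule selects places where peaks lie close, and all peaks were already concentrated in the last 10%. How much of the excess the rule itself sets was not tested. With runs of 3 or more peaks, 69.1% of 698 run peaks lay in the last 10% in replicate 1. In replicate 2 it was 61.2% of 798, above the 57.8% under the main rule. The share thus stayed above that of all peaks when chains of 3 were added to the runs. With runs of 5 or more peaks, 100% of 21 run peaks lay in the last 10% in replicate 1 and 83.9% of 31 in replicate 2. With a joining gap of 50 nt the direction turned in replicate 2, where 38.5% of 13 run peaks lay there, against 67.6% of 37 in replicate 1.

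Counted as whole runs, the excess was less certain. In replicate 1 the midpoint had a median of 0.970 over 33 runs, with 25 in the 3′-most 10%, 75.8% (59.0 to 87.2%), and 2 in the 5′-most 10%. In replicate 2 the median was 0.934 over 32 runs, with 18 in the 3′-most 10%, 56.2% (39.3 to 71.8%), and 3 in the 5′-most. The interval of replicate 2 includes the 42.2% of all its peaks. Gene by gene, the run lay further 3′ than the median of the gene's other peaks in 21 of 33 gene IDs in replicate 1 and in 22 of 32 in replicate 2. The last peak of the span belonged to the run in 8 and 3 of these runs. The run on chromosome 15 at 51740299 to 51740637 stood 0.999 of the way along a span of 121 kb in both lists.

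**Figure D5:**
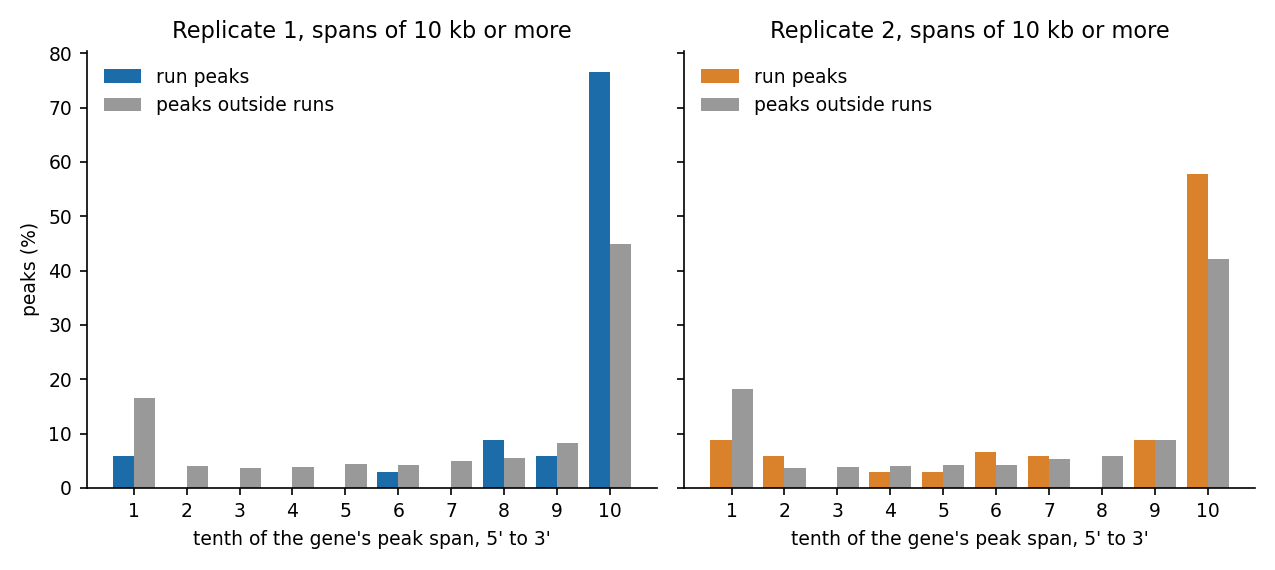
Share of peaks (%) in each of 10 equal parts of the gene's peak span, from 5′ (1) to 3′ (10), for run peaks (coloured) and peaks outside runs (grey), spans of 10 kb or more. The 3′-most part held 76.6% of run peaks in replicate 1 and 57.8% in replicate 2, the highest bar in both.

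A span set by peaks is not a transcript, and a short span leaves little room. Over all spans the shares of run peaks in the 3′-most 10% were 53.4% in replicate 1 and 43.5% in replicate 2, against 38.8% and 35.8% of all peaks. Over spans under 10 kb, 7 of 27 runs in replicate 1 and 12 of 40 in replicate 2 had their midpoint there, 25.9% (13.2 to 44.7%) and 30% (18.1 to 45.4%). All peaks in such spans were there in 27.4% and 24.8%, so the runs of short spans showed no excess beyond counting error. Whether a run lay in a 3′ UTR could not be read, since gene models of hg19 were not used here.

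A larger share of the mitochondrial peaks lay in runs than of the whole list. In replicate 1, 16 of its 70 peaks were in 4 runs, 22.9%, against 0.961% over the whole list. In replicate 2, 4 of its 62 peaks were in 1 run, 6.45%, against 1.22%. The tallies of these run peaks had a median of 30.5 and 45, against 15 and 13 for other mitochondrial peaks. The gene IDs of the 4 mitochondrial runs in replicate 1 had short peak spans, from 0.624 to 1.47 kb. Whether this close spacing accounts for the larger share in runs was not tested. The 3 runs seen in replicate 1 alone lay at 697 to 1047, 3452 to 3718 and 11592 to 11835, with sums of 184, 81 and 87. Replicate 2 had 3, 2 and 2 peaks in these extents, with sums of 89, 36 and 46.

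Some nuclear chromosomes had runs in 1 replicate alone. Chromosome 10, with 4.22% and 3.78% of all peaks, had 6 runs in replicate 1 and 0 in replicate 2. Chromosome 20, with 2.86% and 3.17% of all peaks, had 0 and 5. Both counts hold runs that overlap under different gene IDs, and counted once they came to 4 stretches on chromosome 10 and 3 on chromosome 20. Chromosome X had 5 runs in each replicate, with 2.33% and 2.41% of its peaks. These chromosomes were picked after their counts were seen.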

How the data were processed

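MSI2 CLIP-seq peak lists of 2 NB4 replicates were analysed. The submitters' processing notes name build hg19 and the tools STAR 2.3.0e, Bowtie 1.0.0 and cutadapt. The deposited names record trimming of poly(A) and adapters and removal of duplicates. A peak caller is not named in the labels or files used. The deposited p-values are the authors' own. Each was under 0.05 and was used only to rank peaks within a list.

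Peaks were chained within gene IDs as deposited, and the chaining was tested on simulated lists. Shares carry 95% Wilson intervals, which cover counting error only. Named runs were the 10 with the most peaks in each replicate, those in both replicates (up to 12), the 5 gene IDs with the most runs, and the 5 strongest runs with the fewest peaks of the other replicate. From these the text takes the ones it describes. The mitochondrial runs of replicate 1 and the second run on chromosome 12 were picked after their values were seen. Members, lists and classes were chosen with earlier results of these data known. The gene and marker lists could not be read, since no gene ID was paired with a symbol. The tools were pandas 2.3.3, NumPy 2.4.6, matplotlib 3.10.9 and SciPy 1.17.1 under Python 3.11.15.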

Additional observations from a re-analysis of the deposited data

How the results depend on the processing

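Of 73 alternative values, 42 stayed within 1 SD of the replicates (for the number of runs, within 1.5 times) and 31 moved. With 2 replicates, either one alone always lies within 1 SD of their mean, so such values stayed by arithmetic. The number of runs is a sum, so a single replicate falls well below it. The counts of stayed and moved values were thus partly fixed in advance. Values are means of the replicates, or sums for numbers of runs. The chosen gap and size set the number of runs, 132 here. It was 25 with a gap of 50 nt, 479 with 200 nt, 789 with runs of 3 or more, 21 with 5 or more and 68 in the stronger 50% of peaks by p, and single replicates gave 60 to 72. The share of peaks in runs, 1.09%, became 0.199%, 4.05%, 4.95% and 0.222% under the first 4 of these, and 0.805% with touching peaks merged, and ranged from 0.961 to 1.22% with either replicate left out. The median tally, 7, was 8.5 with a gap of 50 nt, 10.5 in runs of 5 or more, 12.5 in the stronger 50%, 10.75 with tallies of 4 or more, and 6 to 8 without a replicate. Peak recurrence, 57.2%, was 38.6% by inner centres within 10 nt, 39.9% by reciprocal overlap of 50%, 69.0% in the stronger 50% and 65.3% with tallies of 4 or more, and 54.5 to 59.8% without a replicate. The share of runs met, 16.8%, was 8.01% at 50 nt, 21.6% at 200 nt, 25.2% for runs of 3 or more, 0% for 5 or more, 23.9% in the stronger 50%, 22.5% with tallies of 4 or more and 10.9% with touching peaks merged, and 15.3 to 18.3% without a replicate. The share in the 3′-most 10%, 67.2%, was 53.0% at 50 nt (67.6% in replicate 1 and 38.5% in replicate 2, the latter under the 42.2% of all its peaks), 48.5% with no minimum span, 91.9% for runs of 5 or more and 83.5% in the stronger 50%, and 57.8 to 76.6% without a replicate. The cause of these moves was not tested, beyond fewer or more peaks entering the runs. An alternative chosen after seeing the data counted overlapping runs once and gave 127 runs with 17.5% met. Leaving out the mitochondrial chromosome gave 127 runs and 56.4% of run peaks recurring. No paired analysis was possible because both libraries belong to 1 group. Total depth is unknown, and peaks of low tally rest on few fragments.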
